A study of Sus scrofa with 8 samples.

Results

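The immune checkpoint genes described here were 7 of the 35683 genes in the count matrices, chosen by name: CD274 and PDCD1LG2, which encode the ligands PD-L1 and PD-L2, PDCD1, CTLA4 and LAG3, which encode inhibitory receptors of lymphocytes, IDO1, a tryptophan-degrading enzyme, and TOX, a nuclear factor. All 7 were present in the files and each was followed in every one of the 8 retinas, in every class of nuclei. The single-nucleus RNA sequencing (snRNAseq) covered 6 female Yucatan minipigs. Animals had received the capsid AAV2.7m8 carrying GFP under the ubiquitous CAG promoter, at 5e11 vector genomes per eye, or vehicle, into the vitreous of both eyes; every animal, vehicle-injected ones included, had first been given Vitrase into the vitreous and was on weekly methylprednisolone. Week 2 is represented by 1 animal per arm with its left and right retina, 7221 after AAV and 7222 after vehicle. Week 4 is represented by left retinas of 2 animals per arm, 7248 and 7249 after AAV and 7250 and 7251 after vehicle. Per the study's methods the animals were between 3 and 5 months old. Each of the 4 groups carried its own batch label, so batch and group cannot be told apart.

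Checkpoint genes restrain lymphocytes that have met their antigen. PD-L1 and PD-L2 on a presenting or bystander cell engage PD-1 (the product of PDCD1) on T cells; CTLA-4 competes with the costimulatory receptor CD28 for CD80 and CD86; LAG-3 binds MHC class II. IDO1 starves T cells of tryptophan and releases kynurenines, and in many cell types CD274, PDCD1LG2 and IDO1 are inducible by interferon. TOX supports T cell development and the program of chronically stimulated T cells, and it is also a gene of many neurons. The eye is known as an immune-privileged organ in which such inhibitory ligands are part of the barrier to inflammation.

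In the reference genome (Sscrofa11.1, RefSeq) the ligand genes were neighbours on the minus strand of chromosome 1, with PDCD1LG2 at chr1:216564428-216600333 and CD274 at chr1:216646378-216792731, 46044 bases apart. CD274 overlapped PLGRKT and RLN2 on the opposite strand. IDO1 lay on the plus strand at chr17:9245283-9260140, next to IDO2. PDCD1 (chr15:140337353-140347493, minus strand), CTLA4 (chr15:107283081-107288041, plus strand, between CD28 and ICOS), LAG3 (chr5:63929669-63935054, minus strand, 11121 bases from CD4) and TOX (chr4:73810180-74115352, plus strand) completed the set. The 250 bases before the annotated start are printed here for the 3 members that were called higher in retinal classes at week 4. Matches to an interferon-stimulated response element core (GAAANNGAA, either strand) or a gamma-activated site (TTCNNNGAA) are in capitals.
IDO1, chr17:9245033-9245282, plus strand: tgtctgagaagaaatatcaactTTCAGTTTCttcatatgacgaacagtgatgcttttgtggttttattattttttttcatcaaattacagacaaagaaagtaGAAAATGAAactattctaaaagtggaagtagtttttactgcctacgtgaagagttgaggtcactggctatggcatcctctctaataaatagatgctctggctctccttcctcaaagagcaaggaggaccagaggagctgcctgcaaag
PDCD1LG2, chr1:216600334-216600583, minus strand: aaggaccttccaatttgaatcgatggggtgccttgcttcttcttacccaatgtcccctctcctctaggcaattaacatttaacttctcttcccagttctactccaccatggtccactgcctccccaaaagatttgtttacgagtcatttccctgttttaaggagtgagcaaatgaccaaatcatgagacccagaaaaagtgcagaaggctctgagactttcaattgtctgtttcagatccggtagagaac
CD274, most upstream of 3 annotated starts, chr1:216792732-216792981, minus strand: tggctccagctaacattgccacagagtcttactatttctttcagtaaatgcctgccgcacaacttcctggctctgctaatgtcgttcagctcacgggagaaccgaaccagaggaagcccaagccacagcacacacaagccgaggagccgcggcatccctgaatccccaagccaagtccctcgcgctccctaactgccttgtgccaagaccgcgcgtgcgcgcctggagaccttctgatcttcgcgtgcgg
The IDO1 window held 2 matches to the response element core, 228 bases before the start on the opposite strand (TTCAGTTTC) and 148 bases before it on the coding strand (GAAAATGAA). Of 20664 promoter windows of the same length, 6.93% held that core, 6.38% the gamma-activated site and 12.6% either. These letters were found in none of the windows of the other 6 members, the 3 starts of CD274 included.

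Of 388491 barcodes, 350568 were kept as nuclei, 36283 to 49209 per retina with medians of 2066 to 3286 unique molecular identifiers (UMIs) per nucleus and 111714335 to 164087454 UMIs in all. Levels are given as CPM, the UMIs of a gene per 1000000 UMIs of the class in that retina, and intervals of single retinas cover counting error only. Of the barcode sequences, 4.63% occurred in more than 1 retina. Classes were named from marker genes (NRL, PDE6A and NR2E3 in rods, GRM6 and GRIK1 in bipolar cells, PAX2, GFAP and TNC in astrocytes, CD163, VSIG4 and F13A1 in microglia and macrophages, CD3E and CD2 in T cells). Of the listed markers found in the files, 21 of 21 were over 2-fold enriched in bipolar nuclei and 6 of 14 in astrocytes. T nuclei numbered 681 and 518 in animals 7248 and 7249, 4 per retina in animal 7221, 1 per retina in animal 7222 and 0 in animals 7250 and 7251. In whole-retina sums, more cells of a type and more RNA per cell cannot be told apart.

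Summed over all nuclei of a retina, 6 of the 7 members were higher in AAV-injected than in vehicle-injected retinas at week 4 (edgeR quasi-likelihood test, 2 animals per arm, Benjamini-Hochberg adjustment over all genes). Of all 26698 genes tested in whole retinas, 6.70% were higher. The log2 fold changes were 8.16 for CTLA4 (SE 1.81, adjusted p = 0.000876), 5.18 for IDO1 (SE 1.11, adjusted p = 0.00057), 3.58 for PDCD1LG2 (SE 0.80, adjusted p = 0.00104) and 2.01 for PDCD1 (SE 0.58, adjusted p = 0.0136). With 460 UMIs against 1, the CTLA4 ratio of sums was 345 (95% counting interval 61.6 to 13664), so the size of its change is poorly bounded. The log2 fold changes were 1.36 for CD274 (SE 0.36, adjusted p = 0.00642) and 1.35 for LAG3 (SE 0.42, adjusted p = 0.0243). TOX did not pass the test, with a log2 fold change of -0.22 (SE 0.13, adjusted p = 0.218). The LAG3 and PDCD1 calls were lost when either vehicle-injected animal was left out, and with week as an additive term over 6 animals the calls of CD274, IDO1, LAG3 and PDCD1 were lost, which left 2, CTLA4 and PDCD1LG2. The classes behind these sums differed from gene to gene, as the plot of the UMIs by class shows.

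**Figure D1:**
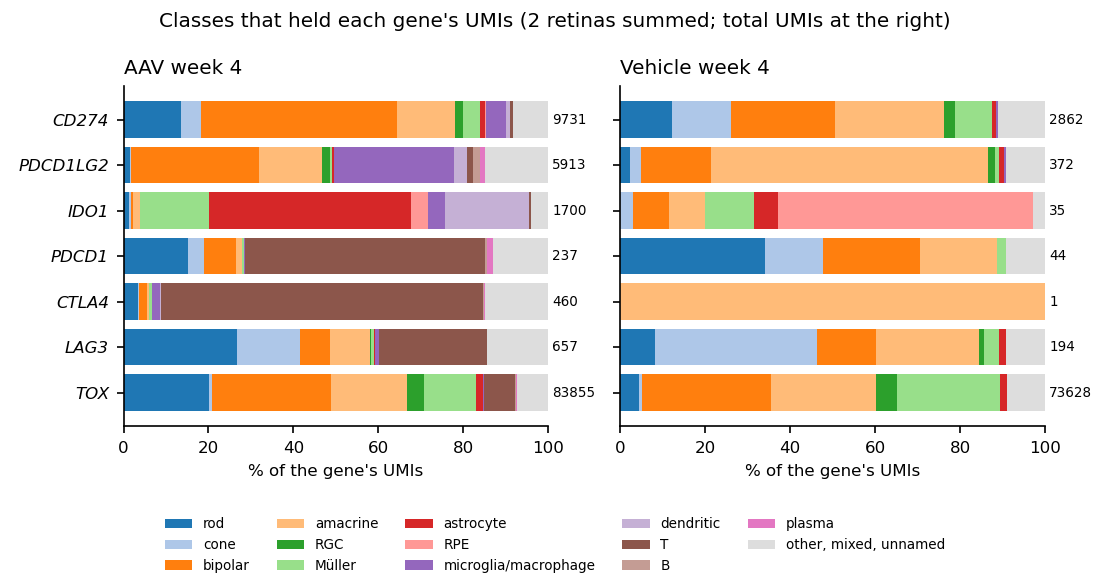
Share of each gene's UMIs held by each class of nuclei at week 4, with the 2 retinas of a group summed and the total UMIs printed at the right of each bar. In AAV-injected retinas bipolar cells held 46.2% of CD274 UMIs, astrocytes 47.6% of IDO1 UMIs and T cells 75.9% of CTLA4 UMIs.

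CD274 was present at a low level in every retinal class, and of the 9 classes tested its log2 fold change was largest in bipolar cells, the interneurons that pass photoreceptor signals to the inner retina. In bipolar nuclei the CD274 level was 91.8 and 71.2 CPM in the AAV-injected animals at week 4, against 16 and 11.96 in the vehicle-injected animals. The change passed the test (log2 fold change 2.57, SE 0.53, adjusted p = 0.00064). A CD274 UMI was found in 18.9% and 17.3% of bipolar nuclei of AAV-injected animals (median depth 3135 and 3628 UMIs) against 4.26% and 2.93% of those of vehicle-injected animals (2473.5 and 2174 UMIs). Plasma nuclei gave 0.225% and 1.52% at medians of 898.5 and 1078 UMIs. They were chosen as a class with little CD274 and were shallower, so they give no background for the bipolar share. Rods and cones of the AAV-injected retinas, with both retinas summed, gave 2.69% and 4.82%. After thinning of nuclei to a depth of 1000 UMIs, the bipolar shares were 8.25% and 6.27% against 1.55% and 1.23%. With 2 animals per arm the smallest p an exact permutation test of a share can give is 0.333.

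PDCD1LG2 rose in bipolar cells from a lower base. Its bipolar level was 49.0 and 16.8 CPM in AAV-injected animals and 1.52 and 0.92 in vehicle-injected animals at week 4 (log2 fold change 4.76, SE 1.18, adjusted p = 0.00775). The AAV-injected animals differed from each other by more than the lower of them differed from vehicle, giving a mean of 32.9 ± 22.8 (SD, n = 2). CD274 and PDCD1LG2 were the members called among the 4 tested in bipolar cells, where 1.59% of 20780 genes were higher. Bipolar nuclei with a CD274 UMI held a PDCD1LG2 UMI more often than those without one, in 29.8% against 5.85% of nuclei in animal 7248 and 14.8% against 2.82% in animal 7249. The nuclei with CD274 were slightly deeper, at medians of 3473 against 3068 and 4251.5 against 3507 UMIs.

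**Figure D2:**
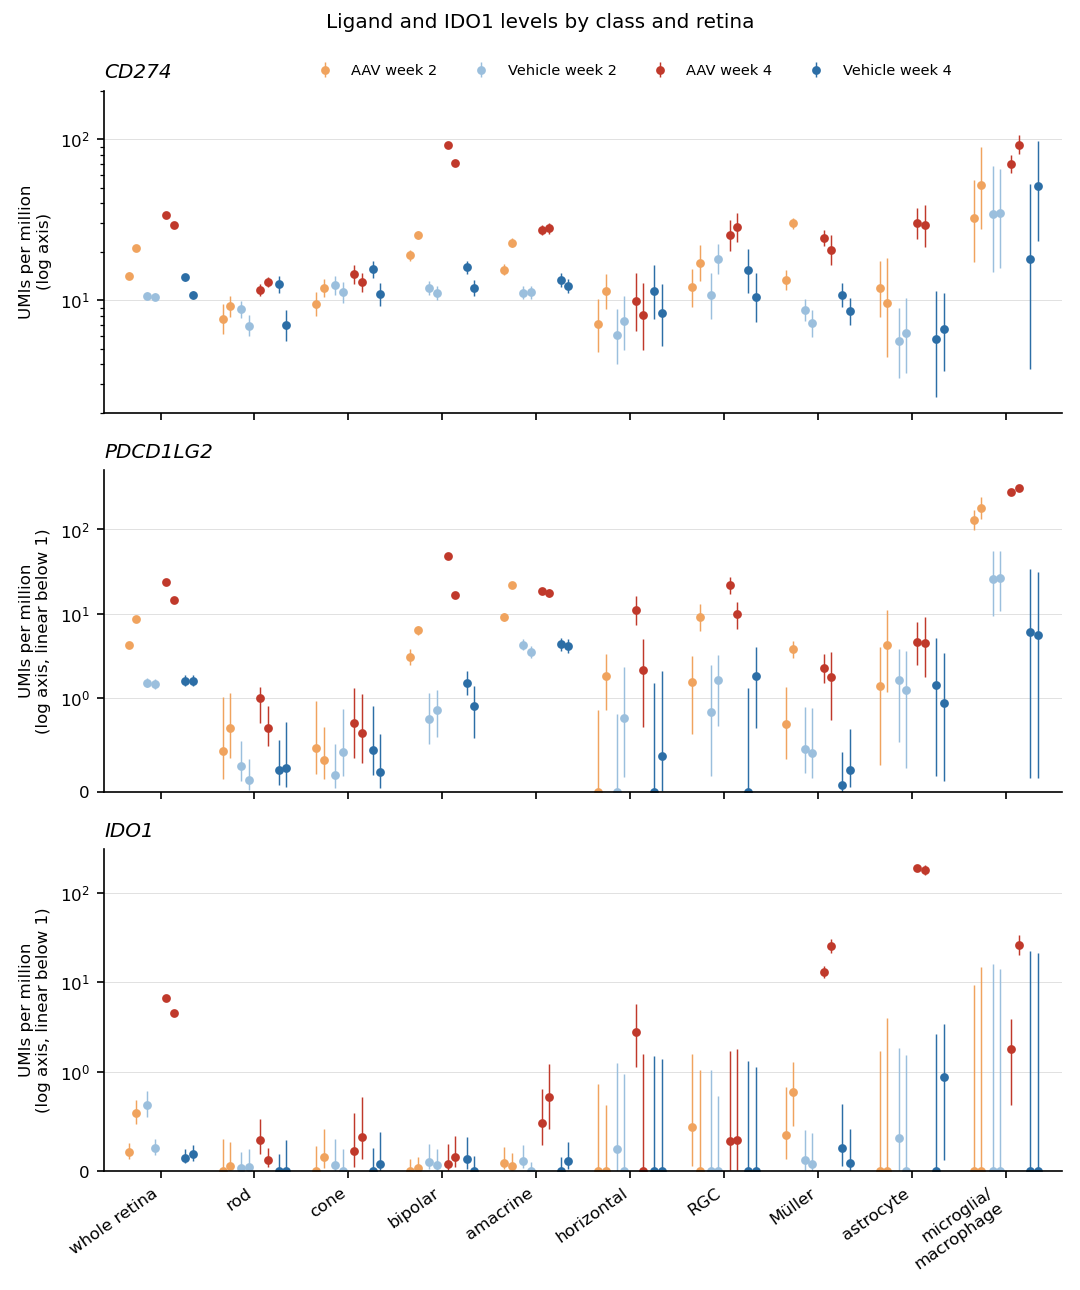
Levels of CD274, PDCD1LG2 and IDO1 in CPM, 1 point per retina with its 95% Poisson interval, by class and group; classes of under 20 nuclei in a retina are left out. The AAV week 4 points of CD274 stand above both vehicle week 4 points in bipolar cells and astrocytes, while rods, cones and horizontal cells overlap with vehicle.

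The bipolar response was uneven between types. Of 15 bipolar clusters, with the retinas of a group summed, CD274 at week 4 ranged from 19.6 to 174.7 CPM in AAV-injected retinas and from 9.64 to 21.1 in vehicle-injected ones, and the ratio ranged from 1.34 to 17.7. With retinas summed the highest level was in a cluster led by SKOR2 and PAPLN, with 177.8 and 171.8 CPM in AAV-injected animals against 17.5 and 19.9. A cluster led by PLB1 and CLCN1, which also carried GRIK1, a glutamate receptor of OFF bipolar cells, had 217.2 and 124.4 against 11.11 and 8.56, so the order of these 2 clusters differed between the AAV-injected animals. In these 2 clusters 32.8% and 37.3%, and 35.9% and 21.6%, of nuclei held a CD274 UMI. The cluster with the most PRKCA, the classical marker of rod bipolar cells, was lower, at 43.5 and 49.8 against 14.9 and 10.96. At the bottom, a cluster led by DKK2 and POU2AF2 had 17.6 and 21.4 against 18.6 and 10.1, which overlap. PDCD1LG2 in the AAV-injected animals was highest in the PLB1 cluster, at 153.6 and 39.7, and lowest in the DKK2 cluster, at 2.20 and 1.88. The differences between clusters were not tested, since clusters of 1 retina are not replicates.

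**Figure D3:**
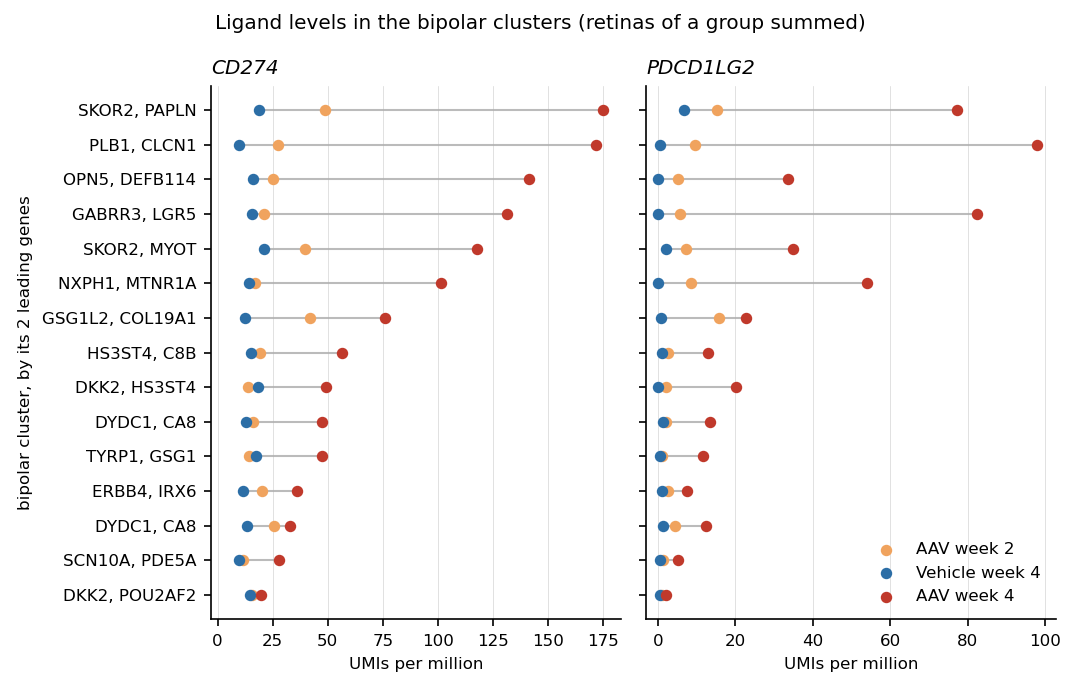
CD274 and PDCD1LG2 in CPM in each of the 15 bipolar clusters, named by their 2 leading genes and ordered by CD274 in AAV week 4, with the retinas of a group summed and a grey line joining vehicle and AAV at week 4. CD274 at week 4 spans 19.6 to 174.7 across clusters in AAV-injected retinas and 9.64 to 21.1 in vehicle-injected retinas.

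Bipolar nuclei with a CD274 UMI had higher levels of IRF1 and NLRC5 than those without one. In animals 7248 and 7249, IRF1, an interferon-induced transcription factor, was at 35.5 and 24.8 CPM in bipolar nuclei with a CD274 UMI and at 15.8 and 10.4 in those without, and NLRC5, the MHC class I transactivator, at 151.0 and 118.9 against 73.2 and 53.7. The vector transgene EGFP was at 41.9 and 54.5 against 37.0 and 39.3, and an EGFP UMI was found in 11.6% and 16.3% against 8.95% and 10.8% of nuclei. The bipolar nuclei with CD274 were deeper and lay more often in the clusters with high CD274, and the part of either was not tested. In amacrine nuclei IRF1 was at 17.8 and 18.8 with a CD274 UMI against 11.7 and 8.38 without, and NLRC5 at 120.3 and 125.8 against 89.9 and 90.8. These differences between nuclei were not tested.

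Amacrine cells, inhibitory interneurons of the inner retina, had the highest PDCD1LG2 level of the 6 neuron classes without the vector. In vehicle-injected animals at week 4 they were at 4.33 and 4.17 CPM and held 65.3% of all PDCD1LG2 UMIs. The level was 18.7 and 17.7 in AAV-injected animals (log2 fold change 2.10, SE 0.42, adjusted p = 0.000193). CD274 in amacrine cells was 27.3 and 28.0 against 13.4 and 12.3 (log2 fold change 1.11, SE 0.26, adjusted p = 0.00266), a call lost without the second vehicle-injected animal. The ligands were the members called of 5 tested, beside 1.87% of all genes. Retinal ganglion cells (RGCs), the output neurons, had CD274 at 25.3 and 28.6 against 15.4 and 10.5 (log2 fold change 1.12, SE 0.33, adjusted p = 0.0239). Their PDCD1LG2 level was 21.7 and 9.84 against 0 and 1.85 (log2 fold change 4.01, SE 1.00, adjusted p = 0.00524, with log2 fold changes of 3.03 to 8.64 over the alternatives). Both were called of 3 members tested in RGCs, beside 2.86% of all genes, neither was called by DESeq2, and the CD274 call was also lost without the second vehicle-injected animal.

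CD274 did not pass the test in photoreceptors. Its level in rods was 11.6 and 12.99 CPM in AAV-injected and 12.6 and 7.00 in vehicle-injected animals at week 4 (log2 fold change 0.35, adjusted p = 0.481). In cones it was 14.5 and 12.9 against 15.6 and 10.9 (log2 fold change 0.08, adjusted p = 0.905). Of 5 members tested in rods 0 passed the edgeR test, 3 had an unadjusted p under 0.05 and DESeq2 called 0, beside 4.74% of all genes higher. Of 3 tested in cones 0 passed, 0 had an unadjusted p under 0.05 and DESeq2 called 0, beside 0.571% of all genes. CD274 in horizontal cells was 9.94 and 8.14 against 11.5 and 8.34. PDCD1LG2 in rods was 1.00 and 0.680 against 0.235 and 0.256 (log2 fold change 1.80, SE 0.68, adjusted p = 0.0709), so the test was not passed. In cones it was 0.734 and 0.628 against 0.446 and 0.212, and in horizontal cells 11.14 and 2.14 against 0 and 0.379 (33 UMIs against 1). In cones (22 UMIs against 10) and horizontal cells the PDCD1LG2 counts were too low for the test. Rods of AAV-injected animals lay mostly in a cluster led by A2M and PLK2, and those of vehicle-injected animals in one led by ESRRB and PDE6B.

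CD274 also rose in glia. In Müller glia, which span the retina, it was 24.5 and 20.6 CPM against 10.8 and 8.52 at week 4 (log2 fold change 1.21, SE 0.33, adjusted p = 0.0046). In astrocytes it was 30.3 and 29.4 against 5.77 and 6.61 (log2 fold change 2.33, SE 0.58, adjusted p = 0.00272). PDCD1LG2 in Müller glia was 2.30 and 1.77 against 0.0771 and 0.23 (log2 fold change 3.65, SE 1.03, adjusted p = 0.00571), which rested on 36 UMIs in AAV-injected retinas. Of 4 members tested in Müller glia 3 were higher, beside 11.7% of all genes, and of 3 tested in astrocytes 2 were higher, beside 8.53%. Müller nuclei of AAV-injected animals lay in a cluster led by CDKN1A and HERC5 (2313 and 818 nuclei), and those of vehicle-injected animals in one led by SLCO1C1 (5690 and 6318 nuclei).

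RNA of immune cells carried into other nuclei was read from the microglia and macrophage markers (41 in the files). Their summed level in bipolar nuclei was 304.2 to 324.6 CPM in AAV-injected and 313.0 to 326.8 in vehicle-injected retinas, with UMIs of 38 and 39 of them. The sum was higher with AAV in astrocytes (880.5 to 1024.4 against 617.9 to 629.4), rods (289.5 to 291.1 against 243.2 to 257.0), amacrine cells and cones. In Müller glia (512.8 to 570.1 against 576.6 to 621.2), RGCs and horizontal cells the sum was lower. These differences were not tested. At the median ratio of these markers between bipolar and microglia or macrophage nuclei, the latter's PDCD1LG2 would give 3.50 and 2.87 CPM in bipolar cells, against 49.0 and 16.8 measured, and CD274 0.880 and 0.860, against 91.8 and 71.2. In amacrine cells the same ratio gave 3.34 and 3.04 of 18.7 and 17.7 for PDCD1LG2, and in RGCs 3.21 and 3.14 of 21.7 and 9.84. In Müller glia it gave 2.46 and 2.64 for PDCD1LG2, at or above the 2.30 and 1.77 measured, and in astrocytes 3.79 and 4.26 of 4.63 and 4.47. In rods it gave 3.73 and 2.79 for PDCD1LG2, above the 1.00 and 0.680 measured, so this ratio is no measured background, and the part of carried-over RNA was not tested. The ratio of dendritic markers, which rested on 9 of 18 genes, gave larger values in bipolar cells, 16.6 and 11.8 for PDCD1LG2, of which the second is close to the 16.8 measured in animal 7249, and 10.1 and 7.26 for CD274. The same dendritic ratio gave 28.6 and 28.3 for IDO1 in bipolar cells, where 0.0760 and 0.137 were measured. In amacrine cells it gave 7.17 and 6.12 for PDCD1LG2 and in RGCs 4.65 and 3.36.

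In AAV-injected retinas, microglia and macrophages had the highest PDCD1LG2 level of the classes present in all groups. At week 4 the level was 279.3 and 309.5 CPM in AAV-injected animals and 6.05 and 5.68, 1 UMI each, in vehicle-injected animals (log2 fold change 5.76, SE 1.11, adjusted p = 4.87e-05). The ratio of sums was 49.8 with a 95% counting interval of 13.8 to 412, which leaves out the spread between animals. The vehicle-injected animal of week 2 had a higher level in this class, 26.4 CPM from 13 UMIs in 237 nuclei. A PDCD1LG2 UMI was found in 34.8% and 45.5% of 1345 and 769 nuclei (medians 2095 and 3136 UMIs) against 0.847% and 0.952% of 118 and 105 (1230.5 and 1531 UMIs). It was the member called of 3 tested, beside 10.4% of all genes. CD274 did not pass, at 70.2 and 92.8 against 18.2 and 51.1 (log2 fold change 1.34, SE 0.55, adjusted p = 0.0654). The nuclei were of different clusters, since those of vehicle-injected retinas were nearly all in a microglia-like cluster led by CALCR and DPP10 (114 and 104 nuclei), which held 5 and 4 nuclei in the AAV-injected animals. Within the AAV-injected animals, the cluster led by TNFAIP6, ACOD1 and CXCL9 had the most of both ligands, PDCD1LG2 at 547.7 and 524.0 and CD274 at 153.9 and 198.9. The larger cluster led by FAM20A, DAB2 and CD163 had PDCD1LG2 at 218.8 and 264.0 and CD274 at 40.8 and 59.2. Dendritic cells, the professional antigen-presenting cells, had CD274 at 262.6 and 170.3 and PDCD1LG2 at 431.1 and 277.9, in 115 and 89 nuclei. PDCD1LG2 was also found in B cells, at 179.9 and 138.3.

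Pericytes, which wrap capillaries, carried CD274 in all groups. Their CD274 level was 106.0 and 238.3 CPM in the eyes of animal 7221, 97.1 and 125.3 in those of animal 7222, 64.2 and 138.1 in AAV-injected and 157.4 and 62.6 in vehicle-injected animals at week 4. The groups overlapped at week 4, and the counts were small, with 15 to 136 pericyte nuclei per retina there.

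IDO1 changed from near absence to a strong signal in astrocytes. In astrocytes, which in the pig retina lie in the nerve fibre layer, the IDO1 level at week 4 was 188.4 and 179.4 CPM in AAV-injected animals against 0 and 0.945 (0 and 2 UMIs) in vehicle-injected animals (log2 fold change 8.27, SE 1.5, adjusted p = 8.74e-05). The ratio of sums was 324 with a 95% counting interval of 89.5 to 2684. An IDO1 UMI was found in 19.3% and 20.3% of 285 and 148 astrocyte nuclei (medians 9634 and 10252.5 UMIs) against 0% and 0.41% of 310 and 488 (4358.5 and 3977 UMIs). Rods of the same AAV-injected retinas gave 0.0611% and 0.0274% at medians of 1882.5 and 2132 UMIs. The UMIs were concentrated in few nuclei. In 26 and 16 astrocyte nuclei with at least 5 IDO1 UMIs lay 475 of 529 and 253 of 281 UMIs, and single nuclei held up to 70.

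In Müller glia IDO1 was 13.1 and 25.5 CPM against 0.231 and 0.0767 (log2 fold change 6.80, SE 1.49, adjusted p = 0.000378), a ratio of sums of 107 (41.4 to 396) over 4 vehicle UMIs. This too rested on few nuclei, with 114 of 160 UMIs in 7 nuclei of animal 7248 and 106 of 115 in 5 nuclei of animal 7249. The 35 and 12 Müller nuclei with IDO1 had less RLBP1, a visual-cycle protein of Müller glia, than those without, at 114.6 and 72.9 against 322.7 and 357.7 CPM. They had more TNC, an astrocyte marker here, at 142.1 and 170.2 against 43.0 and 27.6, and PAX2, the defining marker of retinal astrocytes, at 9.17 and 60.8 against 1.5 and 0, found in 2.86% and 25% of the nuclei with IDO1. GFAP, a marker of astrocytes and of reactive Müller glia, was at 265.9 and 291.7 against 388.6 and 274.8, lower in animal 7248 and slightly higher in animal 7249. CCR7, a dendritic marker, was at 9.17 CPM in Müller nuclei with IDO1 of animal 7248 (5.71% of nuclei) against 0.501 without (0.211%). In animal 7249 CCR7 was at 0 against 0.452. In astrocytes PAX2 was at 675.6 and 659.2 with IDO1 and at 791.1 and 850.8 without. Without nuclei called mixed, the Müller log2 fold change was 4.89. Dendritic cells had the highest IDO1 level, 744.7 and 663.4 CPM, but IDO1 was among the genes that define their cluster, so this is a description. At the median marker ratio, dendritic RNA would give 15.4 and 7.22 of the 188.4 and 179.4 in astrocytes, and 6.56 and 4.66 of the 13.1 and 25.5 in Müller glia. In bipolar cells this ratio gave 28.6 and 28.3 for IDO1 where 0.0760 and 0.137 were measured, so it does not measure the carried-over part.

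Outside the AAV-injected retinas at week 4, IDO1 was found mainly in the few nuclei of the retinal pigment epithelium (RPE), which held 60% of its 35 UMIs in vehicle-injected retinas at week 4 and 86.8% of 144 at week 2. The RPE level was 16.9 and 44.0 CPM in animal 7221, 61.0 and 35.4 in animal 7222, and 33.2 and 25.7 in vehicle-injected animals at week 4. It was 122.9 and 283.3 in AAV-injected animals at week 4, from 71 and 12 nuclei. IDO1 in myeloid nuclei differed between animals, with 4.44 CPM in the TNFAIP6 cluster of animal 7248 and 122.1 in that of animal 7249. Of 14 further genes of tryptophan and kynurenine metabolism, all 14 tested in whole retinas, KMO, KYNU and WARS1 were higher and QPRT lower. Of all 26698 genes tested there 6.70% were higher and 1185 lower. WARS1, the interferon-induced tryptophanyl-tRNA synthetase, rose in astrocytes (log2 fold change 3.85), Müller glia (2.09) and RGCs, the classes called of 9. In astrocytes, where 7 of these genes were tested, KYNU, which cleaves kynurenine, fell, as did KYAT1, while AFMID rose. Of all 12331 genes tested in astrocytes 8.53% were higher and 885 lower.

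In AAV-injected retinas at week 4, PDCD1 and CTLA4 were found mostly in T cells, and LAG3 in T cells, photoreceptors and other neurons. PDCD1 in T nuclei at week 4 was 68.2 and 72.6 CPM in animals 7248 and 7249, with a UMI in 9.10% and 9.46% of nuclei (medians 1222 and 1099 UMIs) against 0.0564% and 0.0939% of rods. CTLA4 was 136.4 and 243.1, in 12.9% and 15.8% of T nuclei against 0.0282% and 0.0352% of rods. LAG3 was 80.2 and 95.5, in 10.7% and 12.7% of T nuclei against 0.437% and 0.305% of rods. With 0 T nuclei in vehicle-injected retinas at week 4 no comparison within T cells could be made. Over the whole retina CTLA4 had 211 and 249 UMIs in the AAV-injected animals at week 4 and 0 or 1 in each of the other 6 retinas. PDCD1 had 127 and 110 UMIs there and 18 to 41 in the others, LAG3 376 and 281 against 91 to 169. T cells held 75.9% of the CTLA4 UMIs (95% exact interval 71.7 to 79.7%) and 56.5% of the PDCD1 UMIs (49.97 to 62.9%). In the other 3 groups T nuclei held 0 PDCD1 UMIs, and rods and bipolar cells held the most, 31 and 20 of 68 in vehicle-injected retinas at week 2 and 15 and 10 of 44 at week 4.

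LAG3 was also found in photoreceptors and amacrine cells. Rods held 26.6% of its UMIs in AAV-injected retinas at week 4 and T cells 25.3%, and in vehicle-injected retinas cones held 38.1%. Amacrine cells held 24.2% there, 47 of 194 UMIs, against 16 in rods, and 83 of 288 against 44 in vehicle-injected retinas at week 2. The LAG3 level in cones was 3.67 and 2.45 CPM in AAV-injected and 3.00 and 1.90 in vehicle-injected animals at week 4. In rods it was 2.16 and 1.26 against 0.329 and 0.769 (log2 fold change 1.78, adjusted p = 0.0862). LAG3 lies 11121 bases from CD4 and overlaps a gene model on the opposite strand, LOC110260752.

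The T nuclei fell into 3 clusters that all held PDCD1 and CTLA4, at levels whose differences were not tested. The largest, led by BCL11B and IL7R (410 and 353 nuclei), had CTLA4 at 149.8 and 177.8 CPM, LAG3 at 88.5 and 87.5, PDCD1 at 45.4 and 41.0, and the regulatory T cell factor FOXP3 at 81.7 and 144.9. A cluster led by the mitotic genes KIF18B and BUB1 (119 and 114 nuclei) had more CTLA4, 206.4 and 395.6, with PDCD1 at 84.6 and 97.4 and LAG3 at 101.5 and 121.7. The third, led by GDA and COL5A1 (152 and 51 nuclei), combined PDCD1 at 83.1 and 98.1 with the lowest CTLA4 of the 3, 60.2 and 45.3. Its LAG3 level was 51.6 in animal 7248. GZMA, a granzyme, was at 247.4 and 76.6 in the BCL11B cluster and 145.5 and 286.1 in the mitotic one. The GDA cluster carried CD4 at 240.7 and 316.8, ICOS, a costimulatory receptor of helper T cells, at 530.2 and 844.8, TOX2 at 530.2 and 792.0, 0 UMIs of GZMA and 1 and 0 of FOXP3. In animal 7248 CD4 was close to this in the BCL11B cluster, at 224.7, as were ICOS and TOX2 in the mitotic one, at 480.4 and 466.8. T/NK nuclei, with KLRK1 at 175.4 and 398.4 and GZMA at 72.7 and 69.7, had 0 PDCD1 UMIs in 244 and 203 nuclei, 1 and 0 CTLA4 UMIs and LAG3 at 17.1 and 19.9 (4 UMIs each). A PDCD1 count of 0 there allows up to 12.8 and 14.9 CPM. The receptors were found together in part, with LAG3 in 21.6% and 30.5% of T nuclei with CTLA4 and in 9.11% and 9.40% of those without, with medians of 1666.5 against 1155 and 1898 against 1010.5 UMIs. The part of depth was not tested.

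**Figure D4:**
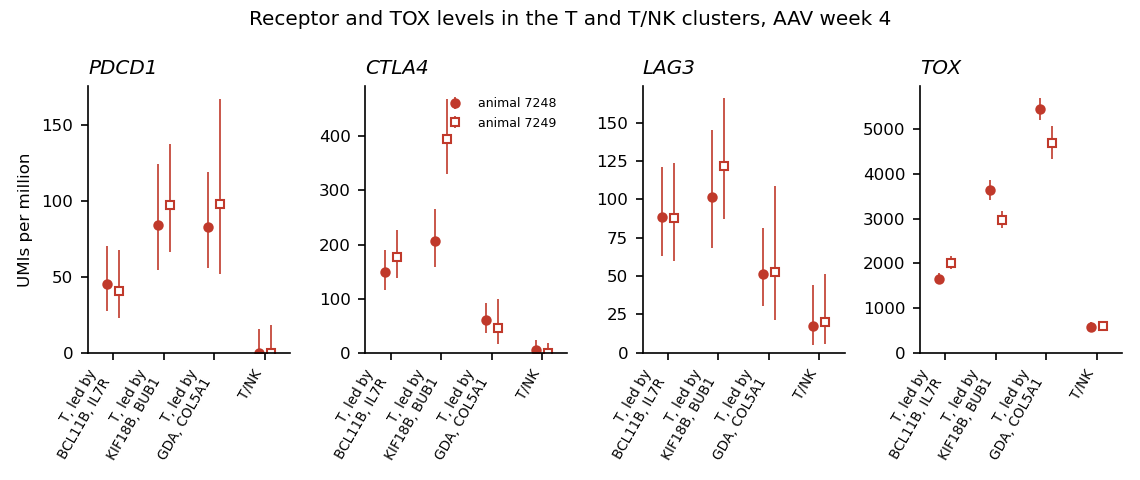
PDCD1, CTLA4, LAG3 and TOX in CPM in the T clusters and the T/NK class of the AAV-injected animals at week 4, with 95% Poisson intervals; filled circles are animal 7248 and open squares animal 7249. TOX is highest in the cluster led by GDA and COL5A1 (5460 and 4699) and CTLA4 in the one led by KIF18B and BUB1 (206.4 and 395.6).

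Most TOX UMIs lay in retinal neurons and glia, while T nuclei had the highest level. The TOX level was 499.7 to 647.8 CPM in RGCs over the 8 retinas, 482.4 to 742.5 in Müller glia and 358.6 to 495.3 in bipolar cells, against 8.85 to 21.6 in cones and 7.52 to 34.1 in microglia and macrophages. In T nuclei of AAV-injected animals at week 4 it was 3417 and 2825, and in T/NK nuclei 573.4 and 602.6. In T clusters it ranged from 1650 and 2007 in the BCL11B cluster to 5460 and 4699 in the GDA cluster. T nuclei held 7.21% of the TOX UMIs of AAV-injected retinas at week 4, and the whole-retina level was 261 and 284 CPM in AAV-injected against 307 and 332 in vehicle-injected animals at week 4. In bipolar clusters TOX ran from 21.5 to 1589 CPM in AAV-injected retinas.

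TOX fell in horizontal cells, the lateral interneurons of the outer retina. The level at week 4 was 135.6 and 159.0 CPM in AAV-injected and 200.1 and 268.0 in vehicle-injected animals (log2 fold change -0.72, SE 0.23, adjusted p = 0.0393). It was the 1 of 2 members tested there that was called, beside 2.27% of all genes lower and 3.52% higher, and the call was lost without the second vehicle-injected animal. In rods TOX was 112 and 192 against 95.4 and 105 (log2 fold change 0.65, adjusted p = 0.160). Its relative TOX3 was lower in 4 of 8 classes tested, rods (log2 fold change -2.29), bipolar cells (-1.47), Müller glia (-0.37) and astrocytes (-1.22). IRF4 had counts high enough for the test only in rods, bipolar cells and amacrine cells, and was higher in these 3 (log2 fold changes 6.84 to 7.34). At such fold changes nearly all counts that pass the low-count filter come from AAV-injected retinas. A call in every class tested is therefore nearly fixed by the filter and does not show how widely IRF4 rose. IRF4 is also a gene of plasma cells, which numbered 444 and 528 nuclei in the AAV-injected retinas and 0 in the others of week 4. The part of their RNA was not tested.

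**Figure D5:**
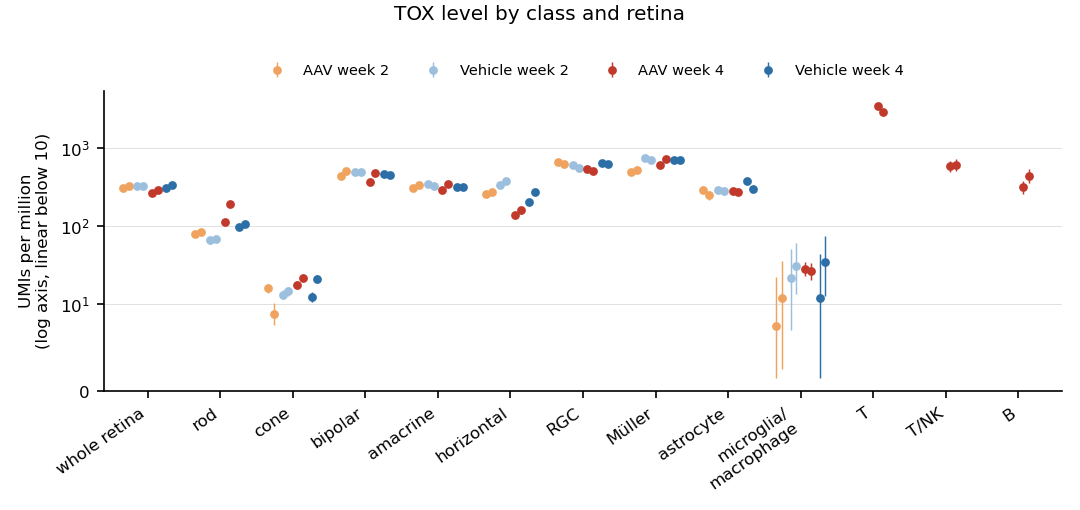
TOX in CPM, 1 point per retina with its 95% Poisson interval, for classes of at least 20 nuclei in that retina. T nuclei of the AAV-injected animals at week 4 stand at 3417 and 2825, above RGCs at 499.7 to 647.8, and horizontal cells at week 4 at 135.6 and 159.0 with AAV against 200.1 and 268.0 with vehicle.

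At week 2 both ligands stood higher in the AAV-injected than in the vehicle-injected animal, and with 1 animal per arm there is no test. PDCD1LG2 in whole retinas was 4.25 and 8.70 CPM in the left and right eyes of animal 7221 and 1.53 and 1.48 in those of animal 7222, a ratio of sums of 4.46 (95% counting interval 4.04 to 4.94). It was the 1 member past 2-fold of 6 with at least 50 UMIs, beside 1.25% of all genes. The ratio was 5.93 in bipolar cells, 4.02 in amacrine cells and 5.67 in microglia and macrophages, where the levels were 130.4 and 181.1 against 25.9 and 26.9. In this class the microglia-like cluster led by CALCR and DPP10 held PDCD1LG2 at 127.6 and 161.0 against 26.1 and 19.4. CD274 was 14.2 and 21.2 against 10.7 and 10.5 in whole retinas, a ratio of 1.71 (1.63 to 1.78). Its highest ratio among retinal classes was in Müller glia, 2.89 (2.51 to 3.34), with 13.4 and 30 against 8.71 and 7.23 CPM. The right eye of animal 7221 was higher than its left eye for both ligands in whole retinas. Over 9 classes, 6 of 25 pairs of member and class with at least 50 UMIs were past 2-fold higher, beside 2.25% of all genes and classes.

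IDO1 in whole retinas had 25 and 96 UMIs in animal 7221 and 108 and 36 in animal 7222, and astrocytes had 0 and 0 against 1 and 0. In Müller glia, IDO1 was higher in animal 7221, at 0.364 and 0.797 CPM against 0.115 and 0.0689, with 21 UMIs against 3 and a ratio of sums of 6.62 (95% counting interval 1.98 to 34.7). The whole-retina ratio of sums was 0.896 for IDO1, but the eyes went opposite ways, with 0.283 (0.175 to 0.440) in left eyes and 2.51 (1.69 to 3.79) in right eyes. The ratio was 0.91 for PDCD1 and 1.09 for LAG3, and CTLA4 had 0 UMIs against 1. The difference of the AAV effect between weeks was fitted as an interaction of treatment and week over the 6 animals. With 1 animal per arm at week 2, the spread in this fit came from the week 4 animals alone. The adjusted p-values below therefore take no account of variation between animals at week 2. They cannot decide whether the AAV effect differed between weeks beyond these animals. IDO1 in whole retinas was called (log2 difference 5.41, SE 1.30, adjusted p = 0.0209), the 1 member of 7, beside 0.568% of all genes higher. PDCD1LG2 (1.49, adjusted p = 0.165), CD274 (0.66, adjusted p = 0.280) and CTLA4 (10.8, adjusted p = 0.153) did not pass. Across the 9 class fits edgeR called 0 of 38 member tests, with 7 at an unadjusted p under 0.05, beside 0.717% of all tests; DESeq2 was not run on this term. Of these, bipolar CD274 had a log2 difference of 1.62 (adjusted p = 0.154) and PDCD1LG2 in microglia and macrophages 3.26 (adjusted p = 0.0663).

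At week 4, of 12 genes of the interferon gamma axis 9 were higher in whole retinas, IFNG, the cytokine itself, among them. The median log2 fold change of the 12 was 3.10, against -0.01 over all genes. The part of interferon gamma in the changes of the members was not tested. NLRC5 was higher in 9 of 9 classes (log2 fold changes 2.00 to 6.40), IRF1 and STAT3 in 8 of 9 (2.11 to 4.03 and 0.94 to 1.43), IFNGR2, a receptor chain, in 3 of 8 and SOCS3, a feedback inhibitor, in 2 of 3. Of the interferon-stimulated genes tested, 49 of 55 were higher in rods, 30 of 47 in cones and 48 of 53 in bipolar cells. Of all genes tested in these classes 4.74%, 0.571% and 1.59% were higher. Of 7 other inhibitory receptors in the files all 7 were higher in whole retinas, where 6.70% of all genes were. They were CD200R1, CD244, CD5, CD96, HAVCR2, KLRG1 and TIGIT, with a median log2 fold change of 2.25. In these sums more cells and more RNA per cell cannot be told apart. Within classes, 0 were higher of 4 tested in rods, 3 in cones, 2 in bipolar cells and 4 in amacrine cells. In horizontal cells and RGCs 0 of 1 were, and in Müller glia 0 of 3. CD200R1 and HAVCR2, the 2 tested in microglia and macrophages, were higher, beside 10.4% of all genes. Of 5 further B7 ligands CD80 and CD86, which CTLA-4 and CD28 share, were higher and HHLA2 lower. CD86 was higher in 3 of 5 classes tested, and VTCN1 was lower in horizontal cells and astrocytes. Of 13 costimulatory genes 6 were higher in whole retinas, beside the same 6.70%. Within classes CD40 was the only one higher, of 4 tested in Müller glia and of 2 in microglia and macrophages. CD47, the signal that restrains phagocytes, was higher in horizontal cells, RGCs and Müller glia (log2 fold changes 0.37 to 0.82). TGFB2 was lower in rods and Müller glia (-0.96 and -0.50), KYAT1 in rods and astrocytes, and CD27 in horizontal cells.

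The genes most like each member across the 18 classes of AAV-injected retinas (Pearson r of log2 levels over 14705 genes, a description, since the classes share libraries) are listed here. XG (0.90) came first for CD274, OTULINL and NCF1 (both 0.95) for PDCD1LG2, and GZMA (0.99) and GZMB (0.97), which encode granzymes, for PDCD1. TNFRSF18 (0.94) and IFNG (0.91) were most like CTLA4, CD28 (0.92) most like LAG3, SNX22 (0.87) and WARS1 (0.85) most like IDO1 and RBCK1 (0.79) most like TOX.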

How the data were processed

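The deposited files were raw counts, which the authors made from 10x Genomics GEM-X 3′ libraries of sorted nuclei with Cell Ranger 8.0.0 against Sscrofa11.1 with an added EGFP sequence, as UMIs per gene and nucleus, 4 lanes per retina, not normalised. The members and gene lists were chosen with earlier results of these data known. Nuclei with a high mitochondrial share for the genes detected were removed with a 2-component mixture model (posterior 0.75; 6.94 to 12.9% of barcodes per retina). A draw of 2500 nuclei per lane was clustered (2000 variable genes, 30 principal components, 20 neighbours, leidenalg 0.10.2 at resolution 1, 60 clusters), the clusters were named from the marker lists and the remaining nuclei followed their neighbours. No doublet caller was run. Nuclei in clusters of immune or vascular cells that also carried retinal markers (0.096 to 2.90% per retina) were kept apart from the named classes, and 2.40 to 8.43% stayed unnamed. Within classes, nuclei whose marker UMIs fitted a mixture of 2 classes better than 1 were kept and left out in an alternative. The stricter gate planned on a class posterior was run as a neighbour vote of at least 0.8 with at least 3 of the class's own markers.

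Counts were summed per retina and class and tested with edgeR 4.0.16 (TMM scaling, low-count filter, quasi-likelihood test, Benjamini-Hochberg threshold 0.05) in R 4.3.3, in the 9 classes with at least 20 nuclei in every retina of week 4, and with DESeq2 1.42.0 as an alternative. Other alternatives were DESeq2 size factors, no filter, leaving out each animal, week as an additive term over 6 animals, all barcodes, nuclei with at least 1000 UMIs and the stricter gate. Eyes of an animal were summed before animals were counted, p-values of week 4 measure the spread between 2 animals per arm, and week 2 was not tested by itself. The fits over 6 animals took in week 2 arms of 1 animal each. The interaction of treatment and week took its spread from the week 4 animals alone. Ratios of sums and shares of nuclei carry exact 95% intervals for counting error, and the level that a count of 0 allows is that of 3 counts. In simulated counts built on the whole-retina fit of 26380 genes, 94% of genes changed 4-fold and 39.4% of those changed 2-fold were recovered, and for microglia and macrophages (9849 genes) 57.1% and 15.8%. The genes named were the 7 members, up to 10 higher and 5 lower genes of the other pathway lists called in the most classes at week 4, the 3 genes most like each member, and class markers; cluster and comparison genes beyond these were named after their values were seen. Sequences came from the RefSeq Sscrofa11.1 genome. 1 gene that this rule names is not reported here.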

Additional observations from a re-analysis of the deposited data

Results flagged for a closer look

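IDO1 was flagged for its AAV effect over whole retinas, which differed between weeks by 5.41 on the log2 scale in the interaction fit. With 1 animal per arm at week 2, the spread in that fit came from the week 4 animals alone. At week 2 the left and right eyes of the 1 AAV-injected animal had 25 and 96 UMIs and those of the 1 vehicle-injected animal 108 and 36. Of these, 77 of 121 after AAV and 125 of 144 after vehicle were in RPE nuclei. At week 4, with 1 eye each, the 2 AAV-injected animals had 1008 and 692 and the 2 vehicle-injected animals 16 and 19.

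For TOX at week 4, both AAV-injected animals were above both vehicle-injected animals in rods and below both in 3 other classes. With 2 animals per arm an exact test of such a separation gives no p under 0.333, and no share of all genes so separated is given. The edgeR adjusted p was 0.160 in rods, 0.302 in RGCs and 0.501 in astrocytes. Horizontal cells had a ratio of AAV to vehicle of 0.629, RGCs one of 0.827 and astrocytes one of 0.831. The difference between classes was not tested, and of these changes only the one in horizontal cells passed the test within its class.

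Nuclei that no marker list named, which entered no class comparison, carried both ligands in AAV-injected retinas at week 4. CD274 was at 30.1 and PDCD1LG2 at 30.6 CPM there with both retinas summed. In unnamed nuclei of the vehicle-injected animals CD274 was at 13.1 and 10.2 CPM and PDCD1LG2 at 1.93 and 0.85.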

How the results depend on the processing

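Of 19 member calls at week 4, 11 kept their direction and stayed past the threshold under every alternative run, 8 lost the call under at least 1 and 0 reversed. Over whole retinas 6 members were past the threshold, 2 with week as an additive term over 6 animals and 4 to 6 with 1 animal left out. Over the 9 classes 13 were, 20 with no filter on low counts and 12 to 14 with 1 animal left out. Beyond the losses named with their genes, the RGC call of CD274 was lost with the additive term and the horizontal TOX call with the additive term, the stricter gate and without mixed nuclei. PDCD1LG2 in Müller glia could not be tested without the first AAV-injected animal of week 4. At week 2, 1 member was past 2-fold in whole retinas, 3 with right eyes only, and 6 pairs of member and class, 3 with left eyes only. The week 2 whole-retina IDO1 ratio was 0.283 with left eyes only, 2.51 with right eyes only and 1.25 against all 3 vehicle-injected animals. The week 2 TOX ratio changed sides with right eyes only in amacrine cells (1.03) and bipolar cells (1.01) and with left eyes only in cones (1.22). Of the pairs of member and class whose share of positive nuclei differed by over 1 percentage point, 23 became 12 with nuclei thinned to 1000 UMIs. Share differences that changed sign were -0.506 points for CD274 in horizontal cells counting at least 2 UMIs, and for TOX -0.956 in cones and -0.618 in bipolar cells without mixed nuclei, and -2.71 in bipolar, -0.123 in amacrine, -0.870 in Müller and -3.48 in astrocyte nuclei when thinned. The causes were not tested. No paired analysis was possible because the labels give animals no number that links an AAV-injected to a vehicle-injected animal, and replicate numbers follow accession order. Counts of 0 to 3 UMIs in vehicle-injected retinas limit the fold changes of CTLA4, IDO1 and PDCD1LG2.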

Other observations

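Over 18 amacrine clusters at week 4, with retinas of a group summed, CD274 ranged from 14.6 to 38.6 CPM with AAV and 7.66 to 20.2 with vehicle, with ratios of 0.996 to 3.12. PDCD1LG2 ranged from 5.15 to 47.3 with AAV and 0.282 to 12.4 with vehicle.

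The ligands were also found in the same nuclei outside bipolar cells at week 4. In microglia and macrophages of animals 7248 and 7249, PDCD1LG2 was found in 56.0% and 64.3% of nuclei with CD274 and in 32.0% and 41.7% of those without, and in RGCs in 36.4% and 16.7% against 11.4% and 9.90%. The part of depth was not tested.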
